A study of Mus musculus with 16 samples.

Results

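This report describes the genes of the unfolded protein response and the integrated stress response in obstructed mouse kidneys. The members are 10 named genes, taken by symbol from the deposited table of 18132 genes: the transcription factors ATF4, ATF6, DDIT3 and XBP1, and the effector genes TRIB3, ASNS, CHAC1, HERPUD1, PPP1R15A and EDEM1. A row was found for 9 of the 10, 8 under the symbol itself and PPP1R15A under its older symbol MYD116. No row was matched to ATF6, which was not analysed here.

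Unilateral ureteral obstruction (UUO) closes the ureter of a single kidney, here the left, with a metal clip. Whole-kidney RNA was hybridized to Illumina MouseRef-8 v2 BeadChips, with 1 array per kidney. Obstructed kidneys, taken after 24 h, numbered 7 from wildtype (WT) mice and 5 from mice deficient in IL-33. Each genotype had 2 control kidneys from untreated mice. Obstruction was done in 2 sets of mice: set 1 gave 3 WT kidneys and 2 deficient ones, while set 2 gave 4 WT kidneys and 3 deficient ones. The set of the controls is not given in the sources used here, and UUO kidneys carried an operation, anaesthesia and buprenorphine that untreated kidneys are not stated to have had, so obstruction and surgery cannot be told apart. The deficiency is not stated to be limited to a cell type. The IL-33-deficient mice had been backcrossed to the C57BL/6J BomTac background, and mice were 8 weeks old unless stated otherwise. Kidneys are named by the number in their label. In RNA from whole kidney, fewer cells of a type and less RNA per cell cannot be told apart.

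The endoplasmic reticulum (ER) folds secreted and membrane proteins, and unfolded protein there is sensed by IRE1, PERK and ATF6. IRE1 splices the XBP1 mRNA into a form that encodes an active transcription factor, ATF6 is cut to release another, and PERK phosphorylates the translation factor eIF2. Other kinases phosphorylate eIF2 when amino acids or heme run short or when viral RNA is present, and all of them lower general translation while raising translation of the ATF4 mRNA; this shared route is the integrated stress response. ATF4 turns on genes of amino acid supply and, with persistent stress, DDIT3 (CHOP). PPP1R15A (GADD34) brings a phosphatase to eIF2 and ends the response. In the kidney, tubule cells carry much of the secretory and transport load and are known to engage these routes after injury.

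The promoters of ASNS, CHAC1 and HERPUD1 are shown because they hold, before the transcript start, a motif of the factors described here, and because the former pair and the last gene moved in opposite directions in WT kidneys. The sequences are from RefSeq (GRCm38.p6), 250 bases up to the start, written 5′ to 3′ on the strand of the gene, with motif letters in capitals. In ASNS (chr6:7693210-7693459, minus strand) and CHAC1 (chr2:119350992-119351241, plus strand) the capitals mark the amino acid response element (AARE, searched as TGATGNAAN), bound by ATF4 with C/EBP partners. In HERPUD1 (chr8:94386179-94386428, plus strand) they mark an AARE and, closer to the start, the ER stress response element named ERSE-II, a site class bound by ATF6 and XBP1.
ASNS: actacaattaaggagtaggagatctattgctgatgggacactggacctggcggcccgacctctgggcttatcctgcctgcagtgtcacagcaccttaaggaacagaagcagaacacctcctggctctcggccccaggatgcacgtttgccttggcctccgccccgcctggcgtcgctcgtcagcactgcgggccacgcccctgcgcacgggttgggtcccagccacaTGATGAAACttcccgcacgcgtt
CHAC1: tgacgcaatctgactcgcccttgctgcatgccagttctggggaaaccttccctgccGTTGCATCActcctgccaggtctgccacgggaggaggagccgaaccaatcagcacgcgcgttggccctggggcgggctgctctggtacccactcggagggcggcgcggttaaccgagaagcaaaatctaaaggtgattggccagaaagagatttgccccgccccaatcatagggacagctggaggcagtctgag
HERPUD1: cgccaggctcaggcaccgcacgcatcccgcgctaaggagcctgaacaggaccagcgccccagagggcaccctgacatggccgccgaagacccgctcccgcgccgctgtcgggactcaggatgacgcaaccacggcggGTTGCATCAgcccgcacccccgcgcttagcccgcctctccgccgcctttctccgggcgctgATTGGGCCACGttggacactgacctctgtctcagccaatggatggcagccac

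The ASNS element read in the sense direction from base -23 to -15 before the start, whereas that of CHAC1 lay on the opposite strand from -194 to -186. HERPUD1 held an AARE on the opposite strand from -113 to -105 and ERSE-II in sense from -52 to -42. Other motifs searched on both strands were the unfolded protein response element (UPRE, TGACGTGG), the longer ERSE, the CCAAT box and a shorter core, CCACGT. A match to the box and one to the core overlap the ERSE-II of HERPUD1 and are not separate matches. TRIB3 held an AARE on the opposite strand after its start, from base 14 to 22. None of AARE, ERSE, ERSE-II and UPRE was found in the windows of ATF4, DDIT3, XBP1, PPP1R15A and EDEM1, which says only that these letters are not within 250 bases before and 50 after the start of the transcript listed. For EDEM1 that start lies inside the gene: the bases before it are chr6:108828391-108828640, whereas the gene is listed from 108824045. The start of the whole EDEM1 gene was thus not searched. Among all 32851 promoter windows of the same length, 3.95% held an AARE, 0.0365% ERSE-II, 0.119% ERSE, 0.676% UPRE, 8.31% the core and 37.4% a CCAAT box. These matches are descriptions of sequence and not measured sites.

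**Figure D1:**
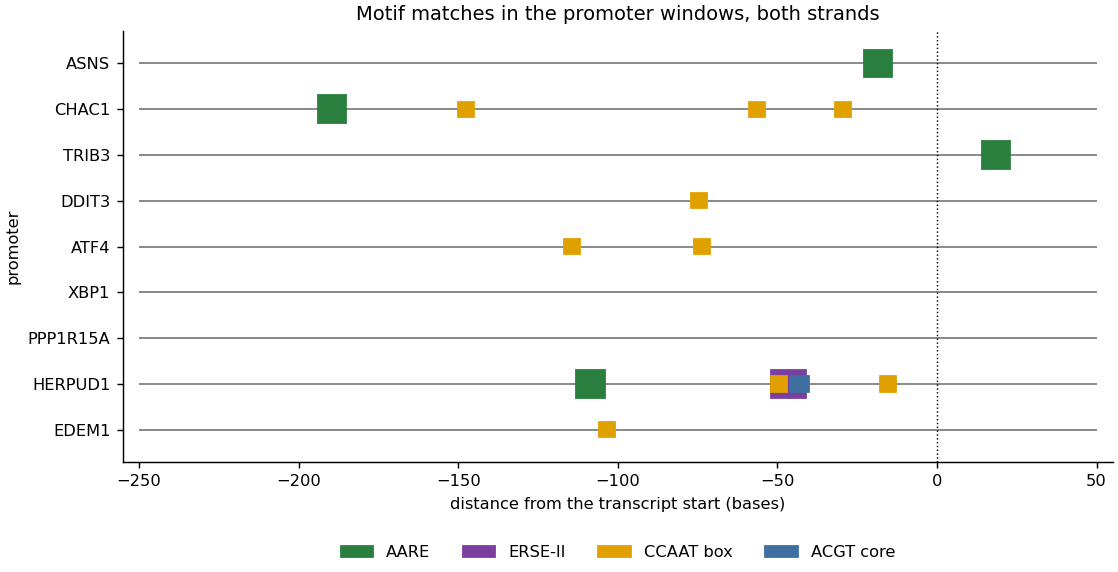
Motif matches in the promoter windows of the 9 genes measured, by distance in bases from the transcript start (dotted line); coloured boxes are matches on either strand. The AARE matches of ASNS, CHAC1 and HERPUD1 lie before the start and that of TRIB3 after it, and HERPUD1 is the member with an ERSE-II match.

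Values are log2 of the intensity, the brightness that the authors deposited per gene, after quantile normalization. Brightness depends on the probe as well as on the transcript, so levels were compared between kidneys and not between genes. The lowest intensity in the table was 95.5, and the deleted gene IL33 read between 111.5 and 129.4 in IL-33-deficient kidneys. A silent gene thus still has brightness, and changes of dim genes come out smaller than they are. Subtracting the lowest intensity, as done below, leaves part of this background in. Array medians were 132 to 133 throughout. IL33 was at a log2 intensity of 7.62 and 8.02 in WT controls, between 8.39 and 9.57 after UUO in WT, and between 6.80 and 7.02 in all IL-33-deficient kidneys, without overlap between the genotypes. The injury marker HAVCR1 (KIM-1), made by injured proximal tubules, was between 7.07 and 7.37 in controls and between 10.4 and 13.9 after UUO, with kidney 3820 lowest and the other obstructed kidneys at 12.8 or above. Of 5 injury markers 4 rose in WT and 5 in IL-33-deficient kidneys, where 6.97% and 10.6% of all genes rose. Of 10 tubule and podocyte markers measured 5 fell in WT and 6 in IL-33-deficient kidneys, where 8.22% and 11.2% of all genes fell. The mean log2 intensity of the tubule and podocyte markers was between 10.6 and 10.7 in controls of either genotype, from 9.62 to 10.43 in WT and from 9.66 to 9.79 in IL-33-deficient kidneys after UUO. The part of this loss in the results below was not tested.

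After UUO, the ATF4 targets CHAC1 and ASNS rose most among the members in both genotypes, TRIB3 and XBP1 rose in both, ATF4 itself passed the test in IL-33-deficient kidneys, and HERPUD1 fell in WT kidneys. CHAC1 was 4.32-fold higher than in controls in WT and 6.05-fold in IL-33-deficient kidneys, and ASNS 3.43-fold and 4.42-fold. With the lowest intensity of the table subtracted, these were 7.02-fold and 12.4-fold for CHAC1 and 5.27-fold and 7.01-fold for ASNS. In WT kidneys 4 of 9 members rose, against 6.97% of all genes, and 1 fell, against 8.22% of all genes, at an adjusted p of 0.05 (limma, Benjamini-Hochberg over 18132 genes). In IL-33-deficient kidneys 5 of 9 rose, against 10.6% of all genes, and none of them fell, against 11.2% of all genes, where HERPUD1, PPP1R15A and EDEM1 did not pass at an unadjusted p of 0.05 either. All 9 members were among the 9066 brighter genes of the table. With those genes alone, 8 of 9 members passed in WT, where 33% of the genes were called in either direction. In IL-33-deficient kidneys 5 of 9 passed, where 44.4% were called. The median log2 fold change of the members was 0.86 in WT and 1.12 in IL-33-deficient kidneys, and that of all genes was -0.00 in each. All 7 WT obstructed kidneys lay beyond both controls for 7 of 9 members, as they did for 21.4% of all genes, and all 5 IL-33-deficient ones for 6 of 9, against 35% of all genes.

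**Figure D2:**
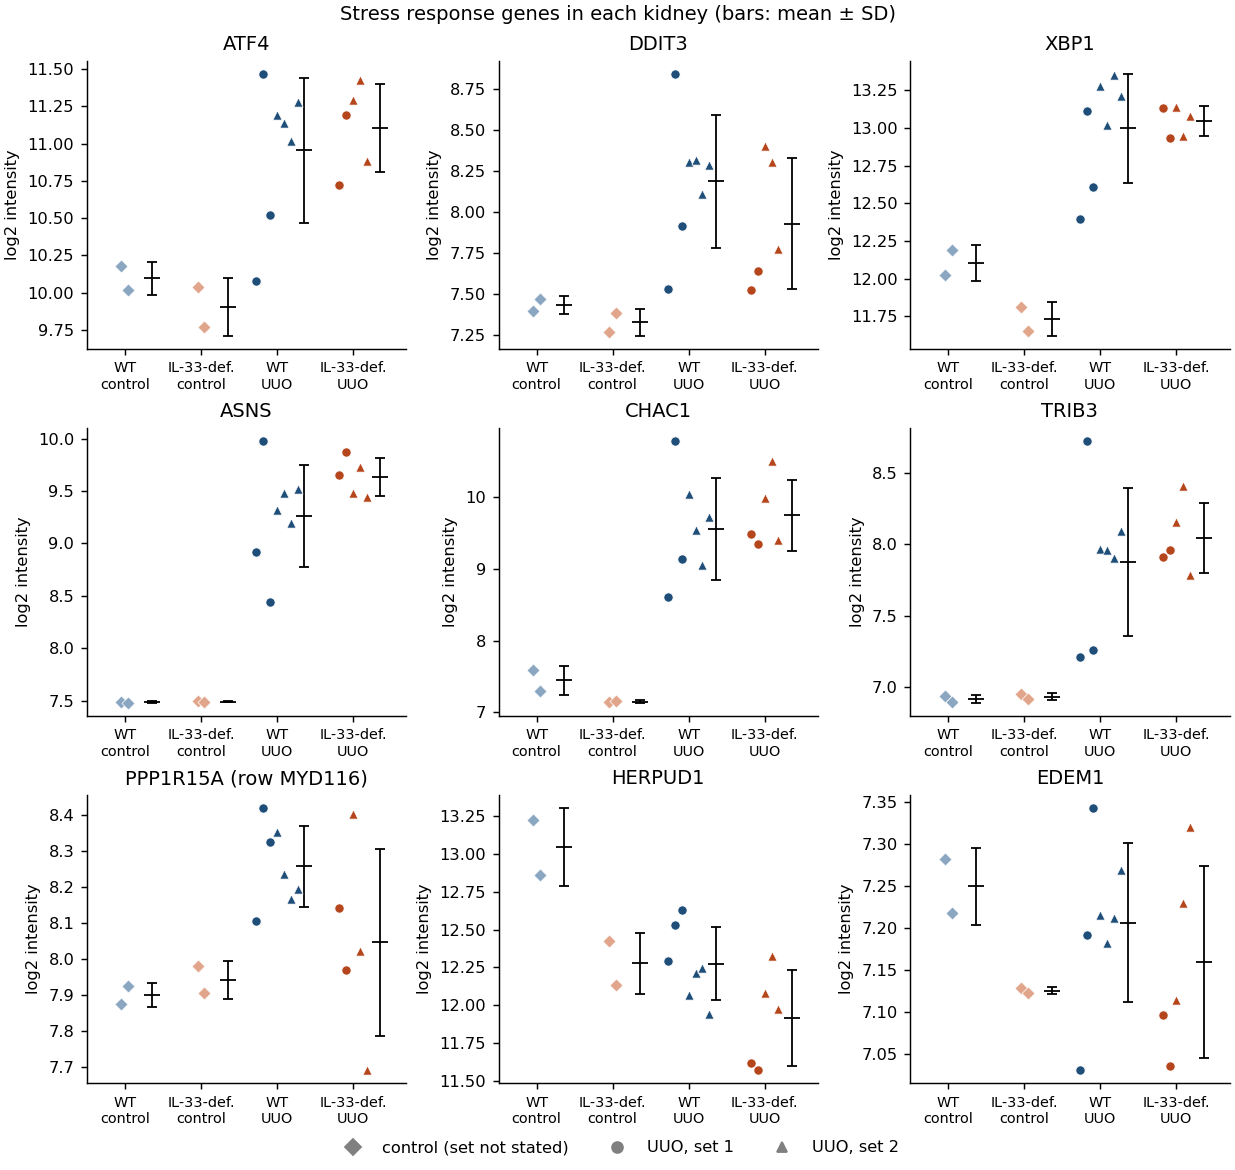
Log2 intensity of the 9 members in each kidney by group; diamonds are controls, circles UUO kidneys of set 1 and triangles UUO kidneys of set 2, and bars give the mean ± SD of each group (2, 2, 7 and 5 kidneys). CHAC1, ASNS, TRIB3 and XBP1 lie above the controls in all 12 obstructed kidneys, and HERPUD1 lies below its WT controls in all 7 WT obstructed kidneys. Each panel has its own vertical scale.

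The transcription factors were measured at 3 rows. ATF4 (chr15:80255184-80257545), the factor translated when eIF2 is phosphorylated, was at a log2 intensity of 10.18 and 10.02 in WT controls and between 10.08 and 11.47, median 11.13, after UUO. 6 of 7 WT obstructed kidneys were above both controls, and kidney 3818 lay between them. The log2 fold change was 0.86 (SE 0.28, limma adjusted p = 0.0546), short of the threshold, and the exact permutation test gave p = 0.0556, where the smallest possible of 36 splits is 0.0278. ATF4 passed in 9 of 18 alternatives in WT, with adjusted p from 9.13e-05 to 0.506. The log2 fold change was 1.00 without kidney 3818 (limma adjusted p = 0.00464) and 0.93 without kidney 3820 (0.0272), but 0.77 without kidney 3819 (0.0783). It was 0.94 without control 3811 and 0.78 without control 3812. In IL-33-deficient kidneys ATF4 was at 10.04 and 9.77 in controls and at 10.72, 11.19, 11.29, 11.43 and 10.89 after UUO. The groups did not overlap and ATF4 rose by 1.20 (SE 0.30, limma adjusted p = 0.00783). Without control kidney 3814 the rise was 1.07 and did not pass (adjusted p = 0.0961), nor with the UUO kidneys of set 1 alone (1.05, adjusted p = 0.147).

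XBP1 (chr11:5520641-5525993) has a single value in the table, which does not separate spliced from unspliced mRNA. It was at a log2 intensity of 12.02 and 12.19 in WT controls and between 12.40 and 13.35, median 13.12, after UUO. In IL-33-deficient kidneys it was at 11.81 and 11.65 in controls and at 13.13, 12.94, 13.14, 12.95 and 13.08 after UUO. No obstructed kidney overlapped the controls of its genotype, and the 5 IL-33-deficient kidneys lay close together (SD 0.10, against 0.36 over the 7 WT kidneys). XBP1 rose by 0.89 in WT (SE 0.19, limma adjusted p = 0.00622) and by 1.31 in IL-33-deficient kidneys (SE 0.20, adjusted p = 0.000293). The WT call was lost without control 3811 (adjusted p = 0.0951), without control 3812 (0.054) and with the UUO kidneys of set 1 alone (0.179), whereas the IL-33-deficient call passed in all 16 alternatives. XBP1 is also the factor of plasma cells. Of 6 plasma cell markers 1, SDC1, rose in each genotype, where 6.97% of all genes rose in WT and 10.6% in IL-33-deficient kidneys. JCHAIN, which joins antibody chains, stayed between 6.84 and 7.05 in all 16 kidneys, and the mean of the 6 markers was between 6.93 and 7.04. These levels are close to those of the deleted gene IL33 in IL-33-deficient kidneys (6.80 to 7.02), where a change would be hard to see. The part of plasma cells in the rise of XBP1 was not tested.

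DDIT3 (chr10:127290793-127296291), the CHOP factor downstream of ATF4, was dim. Its log2 intensity was 7.40 and 7.47 in WT controls and between 7.53 and 8.84, median 8.29, after UUO, without overlap. The log2 fold change of 0.75 (SE 0.27, limma adjusted p = 0.0758) did not pass in WT, and neither did 0.60 (SE 0.28, adjusted p = 0.16) in IL-33-deficient kidneys, where controls were at 7.27 and 7.39 and obstructed kidneys at 7.53, 7.64, 8.40, 8.31 and 7.77. The exact permutation test gave p = 0.0278 in WT, the smallest of 36 splits, and p = 0.0952 in IL-33-deficient kidneys, where the smallest of 21 splits is 0.0476. With the lowest intensity of the table subtracted, the WT difference was 1.14 and passed (adjusted p = 0.0421). With the obstructed kidneys of set 2 alone DDIT3 passed in both genotypes, with log2 fold changes of 0.82 (adjusted p = 0.000844) and 0.83 (adjusted p = 0.00102).

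The ATF4 targets carried the largest changes. CHAC1 (chr2:119351242-119354326) encodes an enzyme that breaks down glutathione. Its log2 intensity was 7.59 and 7.30 in WT controls and between 8.61 and 10.78, median 9.54, after UUO, and in IL-33-deficient kidneys 7.14 and 7.16 in controls and 9.49, 9.34, 9.98, 10.50 and 9.41 after UUO. Every obstructed kidney was above every control by more than the spread of the controls. CHAC1 rose by 2.11 in WT (SE 0.42, limma adjusted p = 0.00381) and by 2.60 in IL-33-deficient kidneys (SE 0.44, adjusted p = 0.000624). This was the 24th largest rise of 18132 genes in each genotype. In WT the call was lost without control 3812 (1.97, adjusted p = 0.073) and with the UUO kidneys of set 1 alone (2.07, adjusted p = 0.124).

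ASNS (chr6:7675165-7693209), asparagine synthetase, had controls close together, at a log2 intensity of 7.49 and 7.48 in WT mice, with 7.50 and 7.48 in IL-33-deficient mice. After UUO it was between 8.44 and 9.97, median 9.32, in WT, and at 9.65, 9.88, 9.48, 9.73 and 9.44 in IL-33-deficient kidneys. The lowest obstructed kidney, WT 3820, was still clear of all 4 controls. The rise was 1.78 in WT (SE 0.26, limma adjusted p = 0.000601) and 2.15 in IL-33-deficient kidneys (SE 0.27, adjusted p = 8.30e-05), ranking 39 and 41 among all rises. ASNS passed in 17 of 18 alternatives in WT, the exception being the UUO kidneys of set 1 alone (1.62, adjusted p = 0.0968), and in all 16 in IL-33-deficient kidneys.

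TRIB3 (chr2:152337425-152344060), a pseudokinase that restrains ATF4 and DDIT3, was near background in controls, at a log2 intensity of 6.94 and 6.90 in WT mice, with 6.95 and 6.91 in IL-33-deficient mice. After UUO it was between 7.21 and 8.72, median 7.96, in WT and at 7.91, 7.96, 8.15, 8.41 and 7.79 in IL-33-deficient kidneys, above all controls. WT kidneys 3818 and 3820 were the lowest, at 7.21 and 7.26. TRIB3 rose by 0.96 in WT (SE 0.29, limma adjusted p = 0.0349) and by 1.12 in IL-33-deficient kidneys (SE 0.30, adjusted p = 0.0134). Subtracting the lowest intensity of the table made these changes 1.83 and 2.11. The WT call passed in 10 of 18 alternatives and was lost without either control (adjusted p = 0.179 without 3811 and 0.215 without 3812) or any of the 4 kidneys of set 2 (0.0528 to 0.0588), with the 2 groups alone in the fit (0.109) and with set 1 alone (0.395). In IL-33-deficient kidneys it was lost without either control (0.0887 without 3813 and 0.0936 without 3814) and with set 1 alone (0.221).

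PPP1R15A (chr7:45522917-45526268), which directs dephosphorylation of eIF2, was called in neither genotype. Its log2 intensity was 7.87 and 7.92 in WT controls and between 8.10 and 8.42, median 8.23, after UUO, without overlap, and the log2 fold change was 0.36 (SE 0.13, limma adjusted p = 0.0721). It passed in 3 of 18 alternatives, the 2 groups alone in the fit (adjusted p = 0.0236), array weights (0.0421) and the brighter genes alone (0.0422). In IL-33-deficient kidneys, controls were at 7.98 and 7.90 and obstructed kidneys at 8.14, 7.97, 8.40, 8.02 and 7.69, so that the groups overlapped and the difference was 0.10 (SE 0.13, adjusted p = 0.69).

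The members of ER-associated degradation did not rise. HERPUD1 (chr8:94386429-94395371), an ER membrane protein that helps to pass misfolded proteins to the proteasome, was at a log2 intensity of 13.23 and 12.86 in WT controls and between 11.94 and 12.63, median 12.25, after UUO. All 7 obstructed kidneys were below both controls, and HERPUD1 fell by 0.77 (SE 0.20, limma adjusted p = 0.0152), 1.71-fold and the 309th largest fall of 18132 genes. In IL-33-deficient kidneys, controls were at 12.42 and 12.14, as low as WT obstructed kidneys, and obstructed kidneys were at 11.62, 11.57, 12.08, 12.32 and 11.98. There 4 of 5 were below both controls and the log2 fold change was -0.36 (SE 0.20, adjusted p = 0.262). Without control 3811 the WT fall was 0.59 (adjusted p = 0.226), without control 3812 it was 0.95 (adjusted p = 0.0549), and with the UUO kidneys of set 1 alone 0.56 (adjusted p = 0.116), so that each of the WT controls was needed for the call. EDEM1 (chr6:108824045-108859356), which directs mannose-trimmed glycoproteins to degradation, was dim. It was at 7.28 and 7.22 in WT controls and between 7.03 and 7.34 after UUO, and at 7.13 and 7.12 in IL-33-deficient controls and between 7.04 and 7.32 after UUO. Its log2 fold changes were -0.04 (95% interval -0.20 to 0.11) and 0.03 (-0.13 to 0.20).

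**Figure D3:**
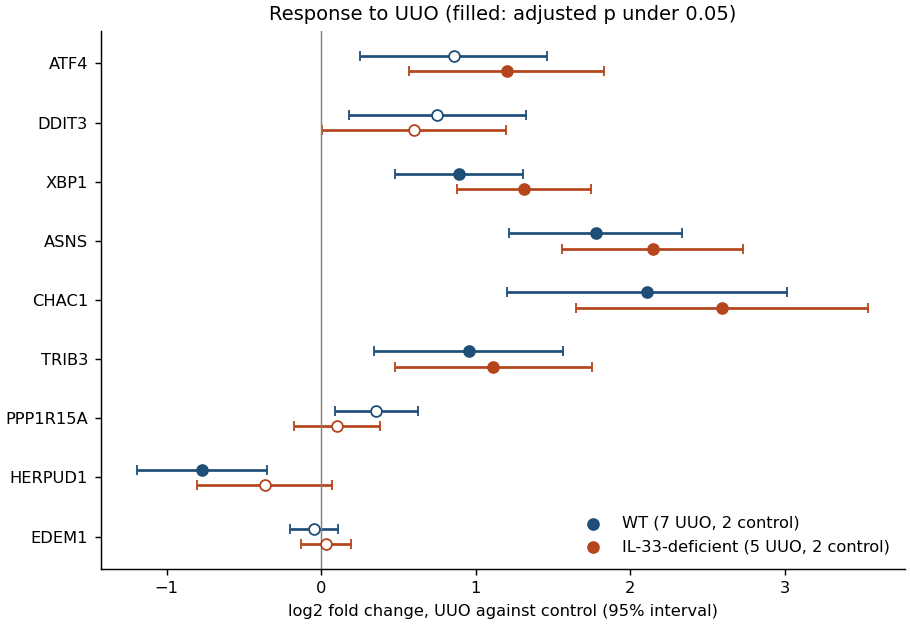
Log2 fold change of UUO against control kidneys for the 9 members, with 95% intervals of the limma fit, in WT (7 UUO, 2 control) and IL-33-deficient kidneys (5 UUO, 2 control); filled points passed an adjusted p of 0.05. CHAC1 and ASNS are farthest to the right in both genotypes, at 2.11 and 1.78 for WT and at 2.60 and 2.15 for IL-33-deficient kidneys, and HERPUD1 is filled to the left in WT, at -0.77.

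The calls in WT rested on both controls: 1 member passed without control 3812 (ASNS; 4.46% of all genes), 2 without control 3811 (ASNS and CHAC1; 5.8% of all genes), and 7 without obstructed kidney 3818 (17.1% of all genes). With the UUO kidneys of set 1 alone 0 of 9 passed in limma, where 1.04% of all genes did, and 5 of 9 had an unadjusted p under 0.05, where 16.3% of all genes did. With those of set 2 alone 7 passed, against 23.4% of all genes. In IL-33-deficient kidneys 3 passed without control 3814 (14.2% of all genes), 4 without control 3813 (12.6%), 4 with set 1 alone (12.5%) and 6 with set 2 alone (24.6%). With set 1 alone HERPUD1 was among them, with a fall of 0.68 (adjusted p = 0.033).

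Obstructed WT kidneys of set 1 spread widely. Kidney 3819 was the highest of all 12 obstructed kidneys for 6 members, ATF4, DDIT3, TRIB3, PPP1R15A, ASNS and CHAC1, while kidney 3818 from the same set and genotype was the lowest for 5, ATF4, XBP1, TRIB3, CHAC1 and EDEM1. Kidney 3820 was the lowest for ASNS and the highest for HERPUD1 and EDEM1, and was also lowest for HAVCR1, at a log2 intensity of 10.4. CHAC1 thus ran from 8.61 in kidney 3818 to 10.78 in kidney 3819 within set 1, against 9.05 to 10.04 over the 4 WT kidneys of set 2. Kidney 3818 was at 12.8 for HAVCR1 and kidney 3819 at 13.9, so both were far above the controls for this injury marker. In WT 5 of 9 members passed without kidney 3819 (13.8% of all genes) and 6 without kidney 3820 (19.7% of all genes). The part of these kidneys in the results was not tested beyond the values without them given here.

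**Figure D4:**
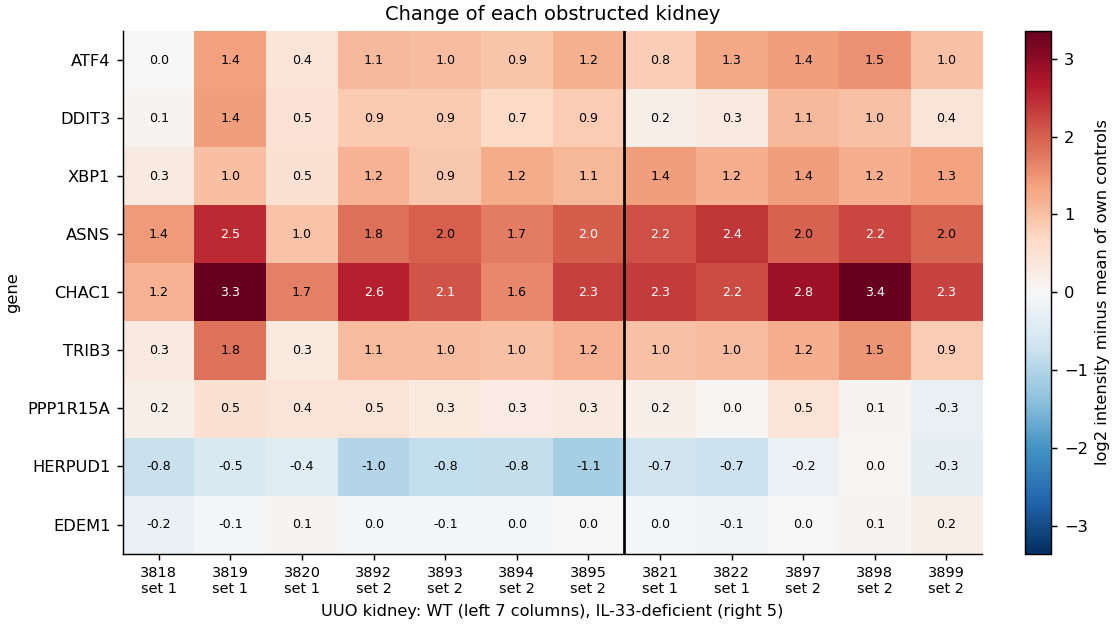
Change of each obstructed kidney in log2 intensity relative to the control mean of the same genotype, by member (rows) and kidney (columns: 7 WT, then 5 IL-33-deficient); red is higher and blue is lower. Kidney 3819 is the reddest column among WT kidneys and kidneys 3818 and 3820 the palest, and HERPUD1 is blue or near white in every column.

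The study compared obstructed kidneys of both genotypes to find what IL-33 changes early in obstruction. For its threshold the paper used probes and fewer WT kidneys than here, and it reports probes that passed in both directions. The counts below, over genes and all 12 obstructed kidneys, are therefore not its own result. No member was called: 0 of 9 passed the study's threshold (an unadjusted p of 0.05, an adjusted p of 0.25 and a fold change above 1.3, limma over 12 arrays), where 0.011% of all genes passed, 2 genes, and 1 of 9 had an unadjusted p under 0.05, near the 10.3% of all genes (1874) that had. That member was HERPUD1, with a log2 difference of -0.36 (SE 0.15, adjusted p = 0.423) and an exact permutation p = 0.0581 over 792 splits. The next were PPP1R15A, at -0.21 (SE 0.10, adjusted p = 0.493), and ASNS, at 0.37 (SE 0.21, 95% interval -0.08 to 0.82, adjusted p = 0.58). The intervals of the others included differences of considerable size, from -0.53 to 0.91 for CHAC1, -0.33 to 0.63 for ATF4, -0.32 to 0.66 for TRIB3 and -0.72 to 0.20 for DDIT3, whereas they were narrower for XBP1 (-0.28 to 0.38) and EDEM1 (-0.17 to 0.08). The values of the genotypes overlapped for all 9 members, as for all but 0.756% of genes, and the member median was 0.05, against 0.00 over all genes.

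The difference in HERPUD1 was carried by set 1. There WT kidneys were at a log2 intensity of 12.29, 12.53 and 12.63 and IL-33-deficient kidneys at 11.62 and 11.57, a difference of -0.89 without overlap, which 24.7% of all genes also showed (exact permutation p = 0.1, the smallest of 10 splits). In set 2 WT kidneys were at 12.07, 12.21, 12.25 and 11.94 and IL-33-deficient kidneys at 12.08, 12.32 and 11.98, a difference of 0.01 (exact permutation p = 0.943). The 2 sets differed in this contrast by -0.90 (SE 0.16, adjusted p = 0.487 in limma), a test chosen after these values were seen, in which 0% of genes passed an adjusted p of 0.05 and 1226 an unadjusted one. In WT kidneys alone HERPUD1 was lower in set 2 than in set 1 (log2 difference -0.37), without overlap, which 9.08% of all genes also showed (exact permutation p = 0.0286, the smallest of 35 splits). XBP1 also changed sign between the sets, at 0.33 in set 1 (exact permutation p = 0.3) and -0.16 in set 2 (exact permutation p = 0.143), and CHAC1 at -0.09 (exact permutation p = 1.0) and 0.37 (exact permutation p = 0.371).

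In control kidneys, 0 of 9 members differed between the genotypes (limma, adjusted p under 0.05), where 0% of all genes did, with 1 member and 664 genes at an unadjusted p of 0.05. The member was HERPUD1 again, lower in IL-33-deficient controls by a log2 difference of -0.77 (SE 0.24, unadjusted p = 0.00693, adjusted p = 1.0). 5 of 9 members did not overlap between the genotypes, against 34% of all genes: DDIT3, XBP1, CHAC1, HERPUD1 and EDEM1, all lower in the IL-33-deficient controls, a direction in which 16.9% of all genes did not overlap, against 17.1% in the other. Such sets of 2 kidneys against 2 allow an exact permutation p of 0.333 at the smallest. No difference between the genotypes in the response to UUO was called either: 0 of 9 and 0% of all genes passed (limma, adjusted p under 0.05), with 0 members and 860 genes at an unadjusted p of 0.05. The largest differences in response were 0.49 for CHAC1 (95% interval -0.82 to 1.79), 0.42 for XBP1 (-0.18 to 1.02) and 0.41 for HERPUD1 (-0.20 to 1.01). HERPUD1 therefore passed the test in WT and not in IL-33-deficient kidneys without a difference between them having been shown.

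The other genes of these pathways were taken in 5 lists. Of 16 ATF4 and CHOP targets, all measured, 7 rose and 1 fell in WT and 8 rose and 1 fell in IL-33-deficient kidneys after UUO, with a median log2 fold change of 0.58 and 0.73. Of all genes 6.97% rose and 8.22% fell in WT, and 10.6% rose and 11.2% fell in IL-33-deficient kidneys. EIF4EBP1, a brake on cap-dependent translation, went from a mean log2 intensity of 9.08 ± 0.07 (SD, n = 2) to 11.19 ± 0.64 (n = 7) in WT, a rise of 2.11 (SE 0.35, limma adjusted p = 0.00116), and rose by 2.69 in IL-33-deficient kidneys (SE 0.36, adjusted p = 0.000111). GDF15, a secreted stress hormone, rose by 2.09 (adjusted p = 0.000933) and 2.52 (adjusted p = 0.000125), and GADD45A, a growth arrest gene, by 1.70 (adjusted p = 0.000544) and 1.75 (adjusted p = 0.000207). Named after their values were seen, CEBPB, a partner of ATF4 on DNA, rose by 1.65 and 2.12 and ATF5, a factor related to ATF4, by 1.57 and 1.85, and the gene that fell in WT was SESN2 (-0.30), an inhibitor of mTORC1 signalling, and in IL-33-deficient kidneys VLDLR (-0.27), a lipoprotein receptor. FGF21, a secreted metabolic hormone, rose in WT by 1.41 and had a log2 fold change of 0.64 in IL-33-deficient kidneys (adjusted p = 0.256), where the test of the difference gave -0.77 (95% interval -1.82 to 0.28).

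Amino acid supply and tRNA charging moved in the same direction as ASNS for most genes that passed. Of 24 genes 23 were measured, and 8 rose and 1 fell in WT and 14 rose and 1 fell in IL-33-deficient kidneys, with medians of 0.26 and 0.34. Among all genes, more were called in IL-33-deficient kidneys as well: 6.97% rose and 8.22% fell in WT, against 10.6% and 11.2%. PSAT1, of serine synthesis, rose by 1.24 in WT (SE 0.18, limma adjusted p = 0.000575) and by 0.93 in IL-33-deficient kidneys (SE 0.19, adjusted p = 0.00216). MTHFD2, a mitochondrial folate enzyme, rose by 1.10 and 1.25, and ALDH18A1, of proline synthesis, by 0.79 and 0.89. Of the 11 cytosolic aminoacyl-tRNA synthetases in the list, a count made after the values were seen, 5 rose in WT and 9 in IL-33-deficient kidneys and none fell, with log2 fold changes from 0.01 to 0.72 and from -0.01 to 1.03. The gene that fell in both genotypes was SHMT2, also named after its values were seen, the mitochondrial serine hydroxymethyltransferase, by 0.73 and 1.09.

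ER chaperones and folding enzymes were called at shares near those of all genes. Of 15 measured among 18, 1 rose and 1 fell in WT, where 15.2% of all genes were called in either direction, and 2 rose and 2 fell in IL-33-deficient kidneys, where 21.8% were, with medians of -0.03 and 0.03. CALR, calreticulin, rose by 0.59 in WT (SE 0.10, limma adjusted p = 0.00157) and by 0.42 in IL-33-deficient kidneys (SE 0.11, adjusted p = 0.0102). HSPA5 (BiP), the chaperone that holds the sensors inactive, was dim, with group means of the log2 intensity from 7.23 to 7.54. Its log2 fold changes were 0.18 (limma adjusted p = 0.622) and 0.31 (adjusted p = 0.324). CANX, MANF and ERO1L of the list were near background, with group means from 6.75 to 6.88, where changes come out smaller than they are. Brighter genes of the list were not called either. HSP90B1 and PDIA3, with group means from 11.99 to 12.24, were at -0.03 and 0.00 in WT and at -0.25 and -0.18 in IL-33-deficient kidneys. PDIA4, with group means from 9.63 to 9.86, was at 0.03 in each genotype. HSPA5 and these genes are named after their values were seen. The same holds for P4HB, a disulfide isomerase that fell by 0.20 in WT, and for the genes called in IL-33-deficient kidneys alone, DNAJB9, a co-chaperone, which rose by 0.91, and DNAJC3 and HYOU1, a co-chaperone and a chaperone, which fell by 0.45 and 0.40. For these 3 the difference between the genotypes in response was 0.76, -0.31 and -0.28, with adjusted p = 0.973 for each in limma.

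Of 13 of 15 genes of ER-associated degradation and export measured, 1 rose and 1 fell in WT and 3 rose and 1 fell in IL-33-deficient kidneys, and both medians were 0.04. Over all genes 15.2% were called in either direction in WT and 21.8% in IL-33-deficient kidneys. OS9, a lectin that hands glycoproteins to the degradation complex, fell by 0.39 in WT (SE 0.08, limma adjusted p = 0.00356) and by 0.32 in IL-33-deficient kidneys (adjusted p = 0.0104). HERPUD2, a relative of HERPUD1, rose by 0.16 (adjusted p = 0.0156) and 0.15 (adjusted p = 0.0173). Of 12 of 13 sensors and eIF2 kinases measured, 2 rose and 1 fell in each genotype, beside the same shares of all genes, with medians of 0.05. CREB3, a membrane-bound transcription factor, rose by 0.41 and 0.65, EIF2AK2 (PKR), the kinase that responds to double-stranded RNA, rose by 0.27 and 0.40, and EIF2AK1 (HRI), the heme-regulated kinase, fell by 0.27 and 0.37. ERN1, which encodes IRE1 and is named after its values were seen, had log2 fold changes of -0.02 and 0.04. It was near background, with group means of the log2 intensity from 6.80 to 6.84. Over the 79 genes of the 5 lists, 0 passed between the genotypes after UUO, in controls or in response (limma), with 9, 6 and 6 at an unadjusted p of 0.05, where 10.3%, 3.66% and 4.74% of all genes were.

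**Figure D5:**
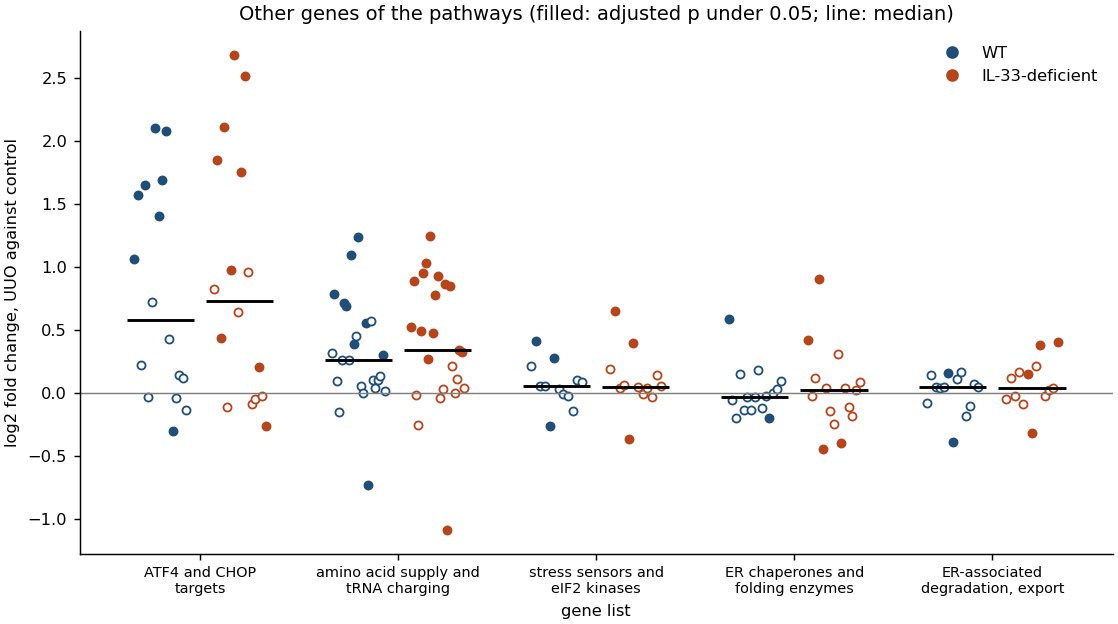
Log2 fold change of UUO against control for each measured gene of the 5 pathway lists in WT and IL-33-deficient kidneys; filled points passed an adjusted p of 0.05 and lines are medians. The median of the ATF4 and CHOP targets is 0.58 in WT and 0.73 in IL-33-deficient kidneys, that of amino acid supply and tRNA charging 0.26 and 0.34, and those of sensors, chaperones and degradation lie between -0.03 and 0.05.

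Markers of other cells were measured beside these changes. Of 12 leukocyte markers measured 2 rose and 1 fell in WT and 4 rose and 1 fell in IL-33-deficient kidneys, where 15.2% and 21.8% of all genes were called in either direction. PTPRC (CD45), carried by all leukocytes, stayed between 6.76 and 6.92 in all 16 kidneys, near the floor of the table. The markers that rose, named after their values were seen, included the neutrophil gene S100A8, by 1.54 in WT and 2.58 in IL-33-deficient kidneys (limma adjusted p = 0.0207 and 0.000555), and the macrophage gene CD68, by 0.62 and 0.96 (adjusted p = 0.0328 and 0.00198). S100A9, the partner of S100A8, was at 1.19 in WT (adjusted p = 0.0569) and rose by 1.91 in IL-33-deficient kidneys (adjusted p = 0.00356). The marker that fell in both genotypes was the macrophage gene CSF1R, by 0.41 and 0.36 (limma adjusted p = 4.47e-05 and 7.04e-05). ADGRE1 and ITGAM, also macrophage genes and both dim, were not called, at 0.02 and 0.12 and at 0.02 and 0.01. These genes are likewise named after their values were seen. The mean log2 intensity of the list was between 7.33 and 7.57 in controls, from 7.59 to 7.92 in WT and from 7.70 to 8.02 in IL-33-deficient kidneys after UUO. LRP2 (megalin), a dim marker of the proximal tubule, had log2 fold changes of -0.23 (limma adjusted p = 0.217) and -0.20 (adjusted p = 0.287). The proximal tubule transporters SLC34A1 and SLC5A2, named after their values were seen, were at -0.58 (adjusted p = 0.272) and -0.66 (adjusted p = 0.181) in WT and fell by 1.52 (adjusted p = 0.00312) and 0.98 (adjusted p = 0.0369) in IL-33-deficient kidneys. The part of changed cell makeup in the members' changes was not tested.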

How the data were processed

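Mouse kidney RNA was measured on 16 arrays, with groups from the sample labels. Per the methods, beadarray was used for import into R. The authors deposited an intensity on a linear scale for each of 18132 genes; the submitters' processing notes also name BeadStudio 2. Background correction, normalization and the joining of probes are not given in the sources used here, and the table holds no detection p-values. At a given rank, intensities varied over the arrays by 0.708% (median over ranks), so they had been scaled alike before deposit. The number of arrays limits the precision, and p-values set a difference against the spread between these kidneys. In the model of 4 groups described below, the groups shared that spread and the set of mice was not a term.

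These intensities were quantile-normalized, log2-transformed and fitted gene by gene with limma 3.58.1 (lmFit, eBayes) under R 4.3.3. P-values were adjusted over all genes by the Benjamini-Hochberg method. The responses to UUO, the control contrast and the difference in response came from a model of 4 groups over 16 arrays, called at an adjusted p of 0.05. The contrast of the genotypes after UUO used the 12 UUO arrays and the study's threshold (unadjusted p 0.05, adjusted p 0.25, fold change 1.3). Exact two-sided permutation tests were run per member in Python 3.11.15 with numpy 2.4.6 and pandas 2.3.3, and plots used matplotlib 3.10.9. The fits were tested on simulated data.

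The members and lists were chosen with earlier results of these data known. Genes named are the members, IL33, the 3 genes of each pathway list with the largest change in WT among those called in both genotypes, and HAVCR1, PTPRC, LRP2 and JCHAIN; others are said to have been named after their values were seen. Symbols missing from the table were matched through a RefSeq synonym (GRCm38.p6) only where it belongs to 1 gene.

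Alternatives were no quantile normalization, median centring, subtraction of the lowest intensity with an offset of 16, the brighter genes alone, array weights, an intensity trend in the prior variance, fits of the groups compared or of 4 groups, the set of mice as a block, each set alone, an adjusted p of 0.05 and each kidney left out. The test of the genotype contrast between the sets and the shares of all genes whose groups do not overlap were added after values were seen.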

Additional observations from a re-analysis of the deposited data

How the results depend on the processing

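In WT after UUO 5 of 9 members were called, where 15.2% of all genes were. With the brighter genes alone 8 passed, where 33% of those genes did, and with array weights 8, where 22.2% of all genes did. With the UUO kidneys of set 1 alone 0 passed (1.04% of all genes). With an obstructed kidney left out from 4 (12.7% of all genes, without kidney 3895) to 7 passed (17.1%, without kidney 3818). With a control left out fewer passed. The cause of these differences was not tested. In IL-33-deficient kidneys 5 were called (21.8% of all genes), and 5 with the brighter genes alone, where 44.4% of those genes were. With any obstructed kidney left out 5 passed (19.7% to 20.9% of all genes), and with a control left out fewer did. In the 3 other comparisons 0 members passed in every alternative. Over all genes, 2754 were called in WT, from 809 to 3578 with a kidney left out, 1778 with the 2 groups alone in the fit, 188 with set 1 and 4241 with set 2, and 3955 in IL-33-deficient kidneys, from 2276 to 3798 with a kidney left out and 2258 with set 1. The genotype contrast after UUO called 2 genes, 168 among the brighter ones, 80 with array weights, 127 with 4 groups in the model, 81 in set 2, 0 in set 1, 3 with a trend of the prior variance, 1 with the set as a block or at an adjusted p of 0.05, and from 1 to 309 with a kidney left out, most without WT kidney 3819. The difference in response called 0 genes, 2 with set 2 alone and 1 without WT kidney 3818.

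Directions turned only for members that had not passed. EDEM1 in IL-33-deficient kidneys was -0.059 with set 1 and from -0.0063 to 0.065 with a kidney left out. Between the genotypes after UUO, XBP1 was -0.041 with array weights, -0.16 in set 2 and from -0.051 to 0.11 with a kidney left out, CHAC1 was -0.093 in set 1 and from -0.000245 to 0.39 with a kidney left out, and in set 2 HERPUD1 was 0.0093 and EDEM1 0.0016. In controls TRIB3 was from -0.0064 to 0.034 and ASNS from -0.0011 to 0.0091 with a kidney left out. In the difference in response DDIT3 was 0.012 with set 2 and HERPUD1 -0.12 with set 1. No paired analysis was possible because the labels give every kidney a number of its own.

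Dim genes are limited by the background of the arrays: subtracting the lowest intensity multiplied the log2 change of TRIB3 by 1.92 in WT and 1.89 in IL-33-deficient kidneys, that of DDIT3 by 1.51 and 1.61, that of CHAC1 by 1.33 and 1.4, that of ASNS by 1.35 and 1.31, and that of HERPUD1, a bright gene, by 0.982 and 0.987. With 2 controls per genotype, small changes cannot be told from their spread.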
